A study of Homo sapiens with 4 samples.

Results

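The cadherins and the genes of the epithelial-mesenchymal transition (EMT) were examined as 10 genes chosen by name, namely CDH1, CDH2, CDH6, CTNNB1, EPCAM, VIM, FN1, ZEB1, TWIST1 and SNAI2, out of 19775 genes that had a probe set of their own on the array. They were covered by 29 of the 54613 probe sets analysed. Each gene was represented by its brightest probe set, and a gene was counted as expressed where the geometric mean of its 4 signals reached 66.3, the median over all probe sets. By this limit 9 of the 10 genes were expressed, and SNAI2 was not. Of the 29 probe sets, 19 reached the limit.

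The RNA came from A549, an established line from a human lung adenocarcinoma, and every culture was transfected with siRNA and then made quiescent by 36 h without serum. The 4 groups were ARRB1 siRNA with nicotine, ARRB1 siRNA serum starved, control siRNA with nicotine and control siRNA serum starved, where nicotine was given at 1 µM for 24 h. The labels name the target only as β-arrestin, and the study's text gives it as β-arrestin-1, the product of ARRB1 and a scaffold for activated receptors. Each group was 1 Affymetrix array, a hybridization platform that reads each transcript with sets of short probes. No untransfected cells and no cells kept in serum were among the groups, and 1 siRNA preparation was named for each arm, so these arrays describe transient transfection of 1 line. No group had a replicate, and no test between groups was run. Each contrast could be read in 2 pairs of arrays that share none, which are given side by side. The spread beside each log2 difference is therefore the SD of the log2 differences of the 500 probe sets nearest in signal on the same pair of arrays. This SD mixes array noise with real differences of other genes, and is written as the SD at that signal.

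Cadherins are calcium dependent adhesion molecules that hold neighbouring cells together at adherens junctions, with catenins tying their cytoplasmic tails to actin. In the EMT, epithelial cells lose E-cadherin (CDH1), gain vimentin and fibronectin and become motile, and transcription factors of the SNAI, ZEB and TWIST families repress CDH1 through E-box sequences. A549 is used widely as a model of this transition, since it holds epithelial adhesion molecules and vimentin in the same culture.

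Upstream sequences from RefSeq (GRCh38.p14) were matched for 5 of the 10 genes: 1 start each for FN1, VIM and CTNNB1, 2 for CDH2 and 7 for ZEB1. The genes CDH1, CDH6, EPCAM, TWIST1 and SNAI2 were not matched. The sequences of FN1 and VIM are shown because these matrix and filament genes differed in opposite directions with ARRB1 siRNA in both pairs of arrays. The VIM difference was within the SD at its signal once the median of sets of like brightness was subtracted. Each is the 200 bases before the annotated start, FN1 at chr2:215436069-215436268 on the minus strand and VIM at chr10:17228041-17228240 on the plus strand. Capitals mark matches, on either strand, to the 4 motifs that were searched for.
FN1: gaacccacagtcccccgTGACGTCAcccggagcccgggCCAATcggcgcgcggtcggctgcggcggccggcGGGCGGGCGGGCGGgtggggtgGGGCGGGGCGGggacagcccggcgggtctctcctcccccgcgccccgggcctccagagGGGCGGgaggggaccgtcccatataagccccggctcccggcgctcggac
VIM: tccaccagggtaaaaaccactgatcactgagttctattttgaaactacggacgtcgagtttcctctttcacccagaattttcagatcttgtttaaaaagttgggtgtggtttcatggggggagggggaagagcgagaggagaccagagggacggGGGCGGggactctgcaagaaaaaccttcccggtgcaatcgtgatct
The cyclic AMP response element TGACGTCA stood 183 bases before the FN1 start, and 1.65% of 35116 human promoters held it in the 250 bases before their start. A CCAAT box (CCAAT or ATTGG, in 32.0% of promoters) began 162 bases before the same start. Of GC boxes (GGGCGG or CCGCCC, in 42.6% of promoters), FN1 had 6, at 129, 125, 121, 107, 102 and 49 bases, some of which overlap one another. VIM had 1 GC box, at 46 bases, and no match to the other motifs. The E-box CACCTG or CAGGTG, to which the SNAI and ZEB factors bind, was held by 17.5% of promoters. It was found at neither of these starts, but at 57 bases before one ZEB1 start and at 242 and 85 bases before another. These matches describe letters only.

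The siRNA and the identity of the cells were checked first. Of 7 ARRB1 probe sets, 6 had a lower signal with ARRB1 siRNA in both pairs, and the median set had 65.7% of its control signal with nicotine and 54.2% when starved. All 9 markers of A549 and of epithelium were expressed, with summed signals between 122358 and 164467. Markers of fibroblasts (3 of 6 expressed, sums 756 to 944), endothelium (1 of 5, sums 201 to 292) and leukocytes (0 of 4, sums 112 to 181) were dim, and none was listed at 0. Probe set medians ran between 68.6 and 73.3 over the 4 arrays.

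**Figure D1:**
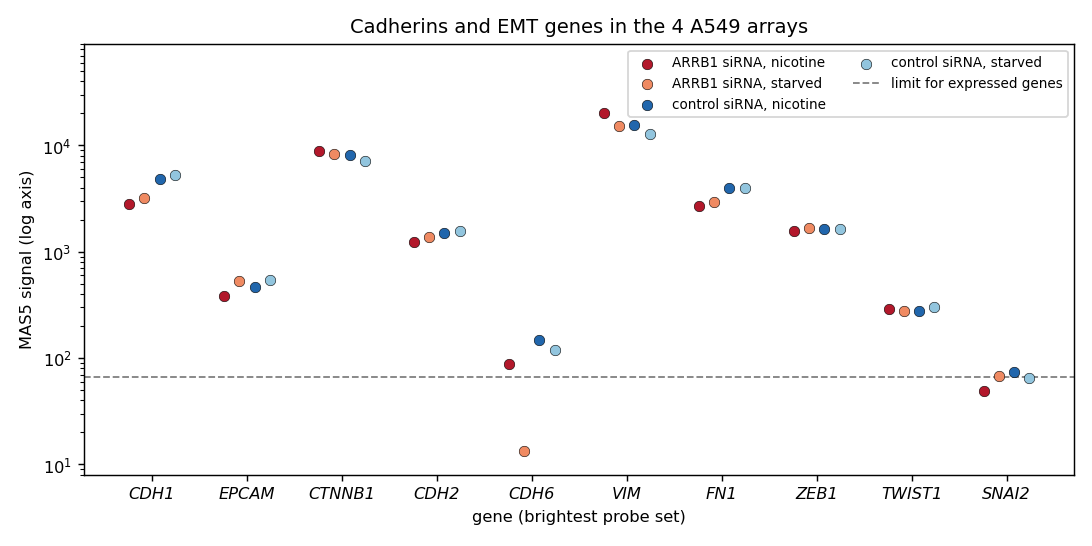
MAS5 signal of the brightest probe set of each of the 10 genes (log axis) on each of the 4 arrays, 1 point per array, with the limit for expressed genes at 66.3 as a dashed line. CDH1 and FN1 lie lower on both ARRB1 siRNA arrays than on both control siRNA arrays, and the CDH6 point of starved ARRB1 siRNA cells lies far under the other 3.

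With ARRB1 siRNA, CDH1 and FN1 had lower signals than with control siRNA in both the nicotine treated and the serum starved pair, while VIM was higher in both. Relative to sets of like brightness, VIM was within the SD at its signal. CDH1 was at 0.587 of its control signal with nicotine and 0.613 when starved. The 4 bright FN1 probe sets were all lower in both pairs, by 0.44 to 0.95 on the log2 scale. CDH2, CTNNB1, EPCAM, ZEB1 and TWIST1 lay within 0.29 of 0 in both pairs at their brightest probe sets. CDH6 gave values that depended on the probe set.

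CDH1 encodes E-cadherin, the defining adhesion molecule of epithelium. Its bright probe set, 201131_s_at, read 2827 in nicotine treated and 3201 in starved ARRB1 siRNA cells, against 4812 in nicotine treated and 5218 in starved control siRNA cells. Both ARRB1 siRNA arrays were thus below both control siRNA arrays, and the signals of the siRNA arms did not overlap. The share of all expressed genes without such overlap was not counted, for CDH1 here or for CDH2, FN1 and SPARC below. Of all expressed genes, 64.6% went the same way in both pairs. The log2 difference was -0.77 in the nicotine treated pair (SD at that signal 0.27) and -0.71 in the starved pair (SD 0.24). Probe sets of like signal had median differences of 0.04 and 0.01 in these pairs, so the lower CDH1 signal was not shared by probe sets of its brightness. Of 12521 expressed genes, 410 (3.27%) were at least as low in the nicotine treated pair, 289 (2.31%) in the starved pair and 109 in both, CDH1 included. The second CDH1 probe set, 201130_s_at, was under the limit for expression and read 25.4 and 5.37 with ARRB1 siRNA, against 56.7 and 64.5 with control siRNA (nicotine treated, then starved). It was lower in both pairs too, by 1.16 and 3.59 on the log2 scale, but the SD at its signal was 1.28 and 1.26. In cultures measured as a whole, fewer cells with CDH1 and less CDH1 RNA in each cell cannot be told apart. The summed A549 and epithelial markers, CDH1 included, were 164467 and 132748 with ARRB1 siRNA and 136680 and 122358 with control siRNA. Of these 9 genes, 7 were higher in both pairs while CDH1 and EPCAM were lower. The sums rest on very bright sets, which were higher in general. At their brightest sets AKR1B10 was higher by 0.32 and 0.21 and AKR1C1 by 0.34 and 0.19, where sets of like signal had medians of 0.29 and 0.22. AKR1C1 was also higher in both pairs by 216594_x_at and 1555856_s_at. By 217626_at it gave -0.49 (SD 0.28) and -0.11 (SD 0.24). The summed fibroblast markers were 944 and 837 with ARRB1 siRNA and 756 and 780 with control siRNA. Of their 3 expressed genes at their brightest sets, COL1A1 was higher in both pairs, DCN lower in both and THY1 divided. Directions depended on the set, since COL1A1 by 1556499_s_at gave -0.78 (SD 0.37) and -0.42 (SD 0.36). By 202310_s_at COL1A1 gave -2.98 and 0.15, and THY1 by 208851_s_at gave 0.28 and 0.81. The part of either list in the CDH1 signal was not tested.

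EPCAM, a second surface adhesion molecule of epithelial cells, did not follow CDH1. Its only probe set, 201839_s_at, read 384 in nicotine treated and 531 in starved ARRB1 siRNA cells, against 465 in nicotine treated and 538 in starved control siRNA cells. The siRNA arms overlapped, with differences of -0.28 in the nicotine treated pair (SD 0.33) and -0.02 in the starved pair (SD 0.32).

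CDH2 encodes N-cadherin, the cadherin of neurons and mesenchymal cells whose gain accompanies loss of E-cadherin in the EMT. The brighter CDH2 probe set, 203440_at, read 1242 in nicotine treated and 1378 in starved ARRB1 siRNA cells, and 1513 in nicotine treated and 1583 in starved control siRNA cells. The arms did not overlap, yet the differences of -0.29 and -0.20 were inside the SD at that signal, 0.30 and 0.28. A dimmer set, 203441_s_at, read 259 and 191 with ARRB1 siRNA against 321 and 312 with control siRNA. Its differences were -0.31 (SD 0.42) and -0.71 (SD 0.38), so that both N-cadherin sets were lower in both pairs and 1 of the 4 values passed its SD. No probe set of CDH2 was higher with ARRB1 siRNA, so the lower E-cadherin signal was not paired with a higher N-cadherin signal.

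CDH6 encodes K-cadherin, a cadherin of the embryonic kidney that some carcinomas also make. Its signals were close to the limit for expression, and 3 probe sets were nearly tied in brightness, with geometric means of 67.3, 67.1 and 67.0. The first, 214803_at, read 87.9 in nicotine treated and 13.4 in starved ARRB1 siRNA cells, against 147 in nicotine treated and 119 in starved control siRNA cells. The 13.4 of starved ARRB1 siRNA cells was the value that stood apart. Its difference was -0.74 with nicotine (SD 0.70) and -3.15 when starved (SD 0.66), and no expressed gene was lower in the starved pair. By 210601_at the signals were 81.4 and 51.9 with ARRB1 siRNA and 69.4 and 69.1 with control siRNA, and the differences were 0.23 and -0.41. By 205532_s_at they were 34.1 and 64.3 with ARRB1 siRNA and 96.8 and 95.3 with control siRNA, and the differences were -1.51 and -0.57. Of the ARRB1 siRNA signals, the lower was thus the starved one by 214803_at and 210601_at and the nicotine treated one by 205532_s_at. They were all lower in the starved pair, and 2 of 3 were lower in the nicotine treated pair. The remaining 3 CDH6 sets were under the limit, the brightest of them at a geometric mean of 27.3.

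CTNNB1 encodes β-catenin, which joins cadherins to the actin linked α-catenin and is also the transcriptional arm of Wnt signalling. Its brightest set, 201533_at, read 8838 in nicotine treated and 8327 in starved ARRB1 siRNA cells, and 8068 in nicotine treated and 7115 in starved control siRNA cells. The differences were 0.13 (SD 0.22) and 0.23 (SD 0.21). Another, 1554411_at, went the other way at -0.16 and -0.25, and the dimmest, 223679_at, at 0.56 and -0.10. The 3 sets gave no common direction for β-catenin RNA.

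**Figure D2:**
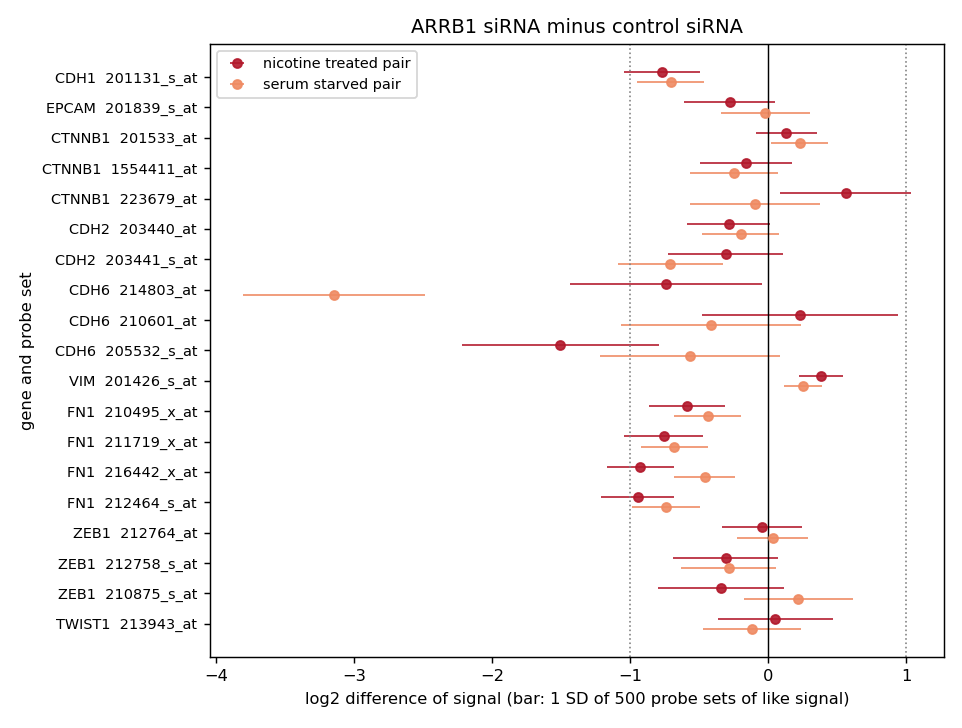
Log2 difference of signal, ARRB1 siRNA minus control siRNA, for each probe set of the 10 genes at or above the limit for expression, in the nicotine treated pair (dark red) and the serum starved pair (orange). Bars are 1 SD of the 500 probe sets of like signal, and dotted lines mark 2-fold. CDH1 and the 4 FN1 sets lie left of 0 by more than their bars in both pairs.

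FN1 encodes fibronectin, a glycoprotein of the extracellular matrix that mesenchymal cells secrete. Its representing probe set, 210495_x_at, read 2671 in nicotine treated and 2914 in starved ARRB1 siRNA cells, against 4008 in nicotine treated and 3950 in starved control siRNA cells. The differences were -0.59 (SD 0.28) and -0.44 (SD 0.24). Set 212464_s_at read 1666 and 2106 with ARRB1 siRNA and 3210 and 3522 with control siRNA, with the widest differences of the gene at -0.95 (SD 0.26) and -0.74 (SD 0.25). Set 211719_x_at was lower by 0.76 and 0.68, and set 216442_x_at by 0.93 and 0.46. In every one of the 4 sets both ARRB1 siRNA signals were under both control siRNA signals, and all 8 differences passed the SD at their signal. Of all expressed genes, 10.9% passed the SD in both pairs in the same direction, and the share without overlap was not counted. These sets read 1 transcript family and are not replicates, and the endings _x_at and _s_at mark sets whose probes can match further transcripts. The other 3 FN1 sets were under the limit for expression. Fibronectin, a mesenchymal gene product, was thus lower at the RNA level on the same arrays as the epithelial CDH1.

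VIM encodes vimentin, the intermediate filament of mesenchymal cells. Its bright set, 201426_s_at, read 20137 in nicotine treated and 15112 in starved ARRB1 siRNA cells, and 15434 in nicotine treated and 12687 in starved control siRNA cells. The ARRB1 siRNA array was higher in each pair, but the starved ARRB1 siRNA signal was below the nicotine treated control signal, so the arms overlapped. The differences were 0.38 (SD 0.16) and 0.25 (SD 0.14). Probe sets as bright as VIM were also higher, with medians of 0.25 and 0.20 in these pairs, and subtracting these left 0.14 and 0.05 for VIM. The brightest of 24 classes of signal, of 1138 probe sets, had medians of 0.20 and 0.17. Relative to sets of its own brightness, the vimentin difference was within the SD in both pairs.

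**Figure D3:**
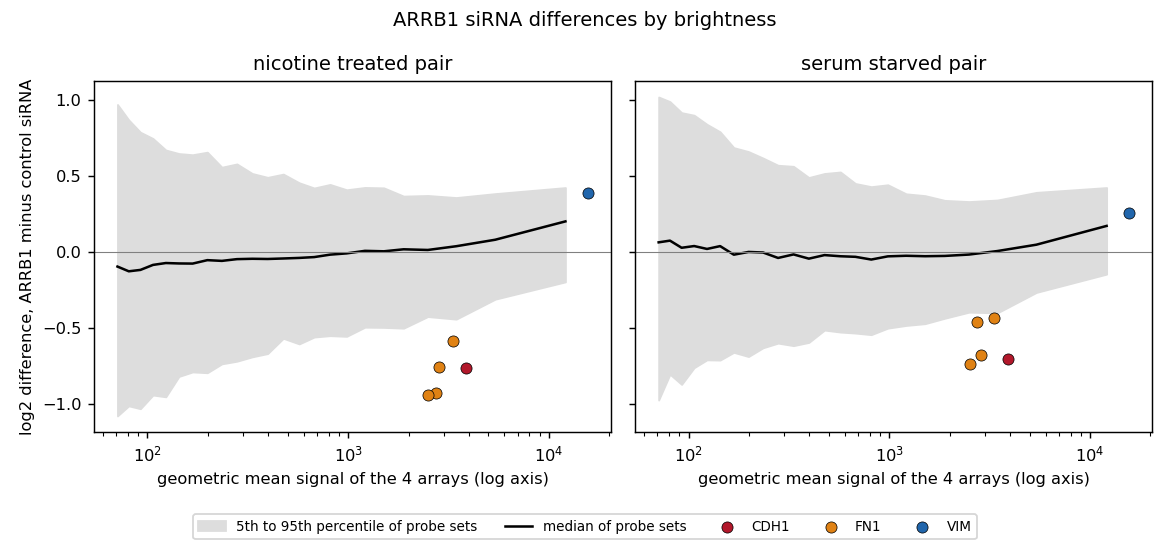
Log2 difference of signal, ARRB1 siRNA minus control siRNA, against geometric mean signal (log axis) in the nicotine treated pair (left) and the serum starved pair (right), with the median (line) and the 5th to 95th percentiles (grey) of probe sets in classes of signal. The CDH1 point and the 4 FN1 points lie low of the median by more than the VIM point lies above it, and the median itself climbs for the brightest sets.

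The transcription factors showed no common direction with ARRB1 siRNA. ZEB1, a zinc finger repressor of CDH1, read 1583 in nicotine treated and 1690 in starved ARRB1 siRNA cells, and 1634 in nicotine treated and 1651 in starved control siRNA cells at 212764_at. Its differences were -0.05 (SD 0.29) and 0.03 (SD 0.26). Dimmer ZEB1 sets gave -0.31 and -0.29 (212758_s_at) and -0.34 and 0.22 (210875_s_at), each inside the SD at its signal. TWIST1, a basic helix-loop-helix factor of mesoderm, read 287 in nicotine treated and 277 in starved ARRB1 siRNA cells, and 277 in nicotine treated and 301 in starved control siRNA cells at 213943_at. These 4 values overlapped, with differences of 0.05 (SD 0.42) and -0.12 (SD 0.35). SNAI2, which encodes SLUG, was under the limit with 49.1 in nicotine treated and 67.8 in starved ARRB1 siRNA cells, and 74.0 in nicotine treated and 64.8 in starved control siRNA cells. Its differences of -0.59 and 0.06 were inside the SD of 0.77 and 0.68. None of ZEB1, TWIST1 and SNAI2 was higher beyond that spread beside the lower CDH1 signal. Their relatives ZEB2 and SNAI1, named after their values were seen, gave other values. ZEB2 was higher by 0.71 in the starved pair (SD 0.47) and lower by 0.33 in the nicotine treated pair (SD 0.50). SNAI1, under the limit for expression, was higher by 0.91 with nicotine (SD 1.06) and by 1.02 when starved (SD 0.98).

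Counted by a 2-fold limit, none of the 10 genes was past it for ARRB1 siRNA in the nicotine treated pair, where 2.28% of expressed genes were. In the starved pair 1 of 10 was, CDH6 by 214803_at, against 1.8% of expressed genes. At 1.5-fold, 4 of 10 were lower in the nicotine treated pair (CDH1, CDH6, FN1 and SNAI2) and none higher, or 3 of the 9 expressed, where 10.2% of expressed genes were past the limit either way. After centring each array on its median this count was 2, without FN1 and SNAI2. In the starved pair 2 of 10 were lower (CDH1 and CDH6) and none higher, where 8.76% were. The median difference of the 10 genes was -0.28 and -0.07 in these pairs, and that of all expressed genes was 0.02 in each. Of the 9 expressed members, 7 went the same way in both pairs, as did 64.6% of all expressed genes. In 4 of the 9 both differences also passed the SD at their signal (CDH1, CDH6, FN1 and VIM), which 10.9% of all expressed genes did. VIM was within that SD once the median of sets of like signal was subtracted. CDH6 did not pass it in both pairs by 210601_at or by 205532_s_at. The 10 genes were chosen with earlier results of these data known, so this count is a description only.

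With nicotine, VIM was the only one of the 9 expressed genes whose brightest probe set passed the SD at its signal in both siRNA arms, and it was higher in both. CDH1 and the representing FN1 set were inside that SD in both arms. VIM differed by 0.41 with ARRB1 siRNA (SD 0.17) and by 0.28 with control siRNA (SD 0.09). Both nicotine arrays were above the starved array of their own arm. Sets of like brightness had medians of 0.17 and 0.14 in these pairs, and VIM was above them by 0.24 and 0.14, more than the SD in each arm. Of the expressed genes, 190 were at least as high in both arms. The second VIM set, 1555938_x_at, was under the limit for expression. With nicotine it differed by -0.20 in ARRB1 siRNA cells (SD 0.80) and by 0.35 in control siRNA cells (SD 0.71).

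CDH1 was lower with nicotine by 0.18 in ARRB1 siRNA cells (SD 0.20) and by 0.12 in control siRNA cells (SD 0.14), both inside the SD. EPCAM was lower by 0.47 (SD 0.31) in ARRB1 siRNA cells and by 0.21 (SD 0.26) in control siRNA cells, so its 2 nicotine arrays held its lowest signals, 384 and 465. For CDH2 the differences were -0.15 and -0.07 at 203440_at, against 0.44 and 0.04 at 203441_s_at, and the direction depended on the set. FN1 differed by -0.13 and 0.02 at its representing set, and its 4 sets ran between -0.42 and -0.09 with ARRB1 siRNA and between -0.13 and 0.05 with control siRNA. CTNNB1 differed by 0.09 and 0.18 at 201533_at.

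The brightest ZEB1 set differed by -0.09 with nicotine in ARRB1 siRNA cells and by -0.01 in control siRNA cells. In contrast, 212758_s_at read 361 in nicotine treated and 211 in starved ARRB1 siRNA cells, and 446 in nicotine treated and 257 in starved control siRNA cells. Both nicotine signals were above both starved signals, and the differences of 0.77 (SD 0.33) and 0.80 (SD 0.30) passed their SD in both arms. Among expressed genes at their brightest sets, 13 were at least as high in both arms. The set 210875_s_at gave -0.39 and 0.17. The sets of ZEB1 therefore disagreed on nicotine, and the dimmer 212758_s_at was singled out after its values were seen. TWIST1 differed by 0.05 and -0.12, and SNAI2 by -0.46 and 0.19, all inside the SD at their signals.

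CDH6 was the only one of the 10 genes past 2-fold with nicotine, and only in ARRB1 siRNA cells, at 2.71 by 214803_at (SD 0.69). This difference rests on the signal of 13.4 in starved ARRB1 siRNA cells. The other 2 tied sets gave 0.65 (210601_at) and -0.91 (205532_s_at) in the same arm. In control siRNA cells the 3 sets gave 0.31, 0.01 and 0.02.

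At 2-fold, 1 of 10 genes was past the limit for nicotine in ARRB1 siRNA cells, where 1.45% of expressed genes were, and 0 of 10 in control siRNA cells, where 1.05% were. At 1.5-fold the counts were again 1 of 10 against 6.86% and 0 of 10 against 4.7%. The median of the 10 genes was -0.11 and 0.00, and that of all expressed genes -0.01 and -0.02. Of the 9 expressed members, 7 went the same way in both arms, as did 54.8% of all expressed genes, and 1 (VIM) passed the SD in both, as did 5.81%.

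**Figure D4:**
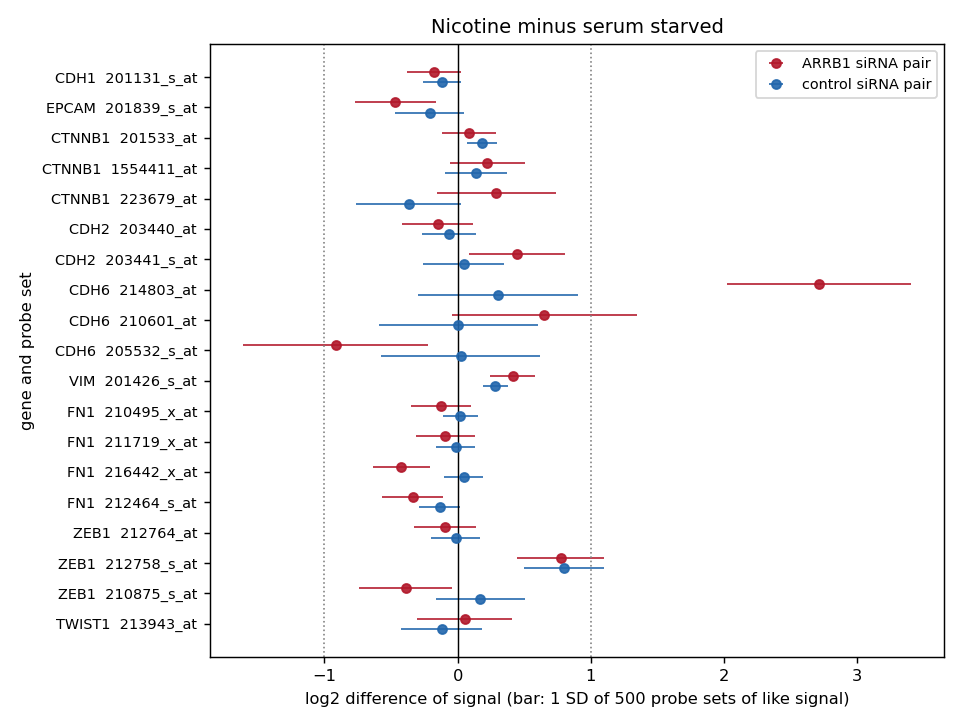
Log2 difference of signal, nicotine minus serum starved, for each probe set of the 10 genes at or above the limit for expression, in ARRB1 siRNA cells (dark red) and control siRNA cells (blue). Bars are 1 SD of the 500 probe sets of like signal, and dotted lines mark 2-fold. VIM and the ZEB1 set 212758_s_at lie right of 0 by more than their bars in both arms, and the 3 CDH6 sets disagree in ARRB1 siRNA cells.

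The wider adhesion and EMT machinery was described by 6 further lists. Of other cadherins, 7 of 19 were expressed, and none was past 2-fold in any comparison, where 1.05% to 2.28% of all expressed genes were. CDH17, the liver-intestine cadherin, read 247 in nicotine treated and 392 in starved ARRB1 siRNA cells, and 425 in nicotine treated and 433 in starved control siRNA cells. CDH19 was higher with ARRB1 siRNA by 0.24 with nicotine and 0.41 when starved, and CDH26 was lower by 0.37 and 0.23, all inside the SD at their signals (0.45 to 0.59).

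Catenins and adherens junction partners had 12 of 17 expressed. One, NECTIN1, a junctional immunoglobulin-like adhesion molecule, was past 2-fold, with 117 in nicotine treated and 122 in starved ARRB1 siRNA cells against 247 in nicotine treated and 118 in starved control siRNA cells. Its nicotine treated control signal stood above the other 3. The α-catenin gene CTNNA1 was higher with ARRB1 siRNA by 0.18 with nicotine and 0.19 when starved at 210844_x_at (SD 0.25 and 0.21), inside the SD. Of its 4 other sets, 2 were higher and 2 were lower in both pairs. CTNNAL1 was higher by 0.12 and 0.17, and LIMA1, an actin cross-linker at junctions, was lower by 0.10 and 0.20, all inside the SD at their signals (0.24 to 0.30), and a second LIMA1 set gave 0.15 and -0.54. None of the 12 expressed genes passed the SD in both pairs, where 10.9% of all expressed genes did.

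The epithelial program had 23 of 36 genes expressed and 0 past 2-fold in each comparison, where 1.05% to 2.28% of all expressed genes were. Its medians with ARRB1 siRNA were -0.10 with nicotine and -0.01 when starved, against 0.02 for all expressed genes in each pair. Of these 23 genes, 9 were lower and 4 higher in both pairs, where 64.6% of all expressed genes went 1 way in both. The SD was passed in both by 5, with MARVELD2, MUC1 and DSP lower and ELF3 and CLDN1 higher, and by 10.9% of all expressed genes. MARVELD2, which encodes tricellulin of tricellular tight junctions, read 658 in nicotine treated and 713 in starved ARRB1 siRNA cells, and 1047 in nicotine treated and 937 in starved control siRNA cells. MUC1, a transmembrane mucin, read 392 and 404 with ARRB1 siRNA and 523 and 543 with control siRNA at 213693_s_at, and its other 2 sets were also lower in both pairs. ELF3, an epithelial ETS factor, was higher by 0.57 and 0.51 at 210827_s_at, while its other sets gave 0.20 and -0.34 (201510_at) and -0.35 and -0.10 (229842_at). DSP, the desmosomal plakin, was lower by 0.41 (SD 0.24) and 0.31 (SD 0.21), and CLDN1, a tight junction claudin, was higher by 0.52 (SD 0.24) and 0.28 (SD 0.23). These last 2 genes were named after their values were seen.

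Other EMT transcription factors had 10 of 18 expressed. None was past 2-fold in any comparison, where 1.05% to 2.28% of all expressed genes were. Medians with ARRB1 siRNA were -0.20 with nicotine and -0.26 when starved, against 0.02 for all expressed genes in each pair. Of the 10 genes, 2 (TCF4 and SOX9) were lower past the SD in both pairs. The share of all expressed genes past it in both, either way, was 10.9%. SOX9 is an HMG box factor. Its brighter set, 202936_s_at, read 1477 in nicotine treated and 1640 in starved ARRB1 siRNA cells, against 2227 in nicotine treated and 2177 in starved control siRNA cells. The differences were -0.59 (SD 0.28) and -0.41 (SD 0.24), and its second set gave -0.94 and -0.42. TCF4, a basic helix-loop-helix partner, was lower by 0.47 and 0.43 at 212386_at, though 1 of its 4 dimmer sets was higher in the starved pair. FOXC2, a forkhead factor near the limit, was higher by 0.34 (SD 0.57) and 0.575 (SD 0.578), inside the SD in both pairs.

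Mesenchymal genes had 21 of 29 expressed. Of these only SPARC, a collagen binding matrix protein, was past 2-fold. It was so for ARRB1 siRNA in the nicotine treated pair, where 2.28% of all expressed genes were. It read 229 in nicotine treated and 276 in starved ARRB1 siRNA cells, and 646 in nicotine treated and 483 in starved control siRNA cells at 200665_s_at. Its arms did not overlap, with differences of -1.49 (SD 0.37) and -0.81 (SD 0.35), and a second set gave -0.61 and -0.60. PLAU, the urokinase protease, went the other way, with 4067 and 3506 in ARRB1 siRNA cells against 2794 and 2249 in control siRNA cells, a difference of 0.54 (SD 0.31) and 0.64 (SD 0.26). CCN2, a matricellular protein, was higher by 0.62 and 0.60 (SD 0.34 and 0.32). The list as a whole had medians of 0.06 with nicotine and -0.17 when starved. Of its 21 expressed genes, 5 were higher and 2 were lower past the SD in both pairs, where 10.9% of all expressed genes passed it. Among the 5, S100A4 (0.31 and 0.23) and TPM1 (0.19 and 0.26) lay in the brightest class of signal, whose medians were 0.20 and 0.17.

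Proteases that cut cadherins or EPCAM had 14 of 15 genes expressed. None was past 2-fold in any comparison, where 1.05% to 2.28% of all expressed genes were. PCSK6, a proprotein convertase, was lower by 0.57 with nicotine and 0.60 when starved (SD 0.58 in each), and NCSTN, the nicastrin subunit of γ-secretase, was lower by 0.39 (SD 0.35) and 0.47 (SD 0.32). CTSL, a lysosomal cathepsin, was higher by 0.26 and 0.19, where probe sets of like signal had medians of 0.24 and 0.19.

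CDH6 by 214803_at had the widest range over the 4 arrays of the expressed members. This range rests on the signal of 13.4 in starved ARRB1 siRNA cells. There 210601_at and 205532_s_at, nearly tied with it in brightness, read 51.9 and 64.3. The expressed genes of closest pattern, by Euclidean distance over the 4 log2 signals after centring each gene on its mean, were KREMEN2 (0.877), TFAP4 (1.08), ZNF414 (1.10), PLXNC1 (1.19) and PKD1P1 (1.20). All of these had their lowest signal in starved ARRB1 siRNA cells, between 21.5 and 50.5. KREMEN2 read 96.3 in nicotine treated and 27.9 in starved ARRB1 siRNA cells, and 142 in nicotine treated and 126 in starved control siRNA cells.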

How the data were processed

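RNA from A549 cells was hybridized to 4 arrays, 1 per combination of siRNA and treatment, and each array was assigned to its group from its labels, with the isoform targeted by the β-arrestin siRNA taken from the study's text. The authors deposited linear MAS5 signal intensities, credited by the submitters' notes to GCOS 1.4 and scaled so that the mean without 2% at each end was 499.9 on every array. Detection calls were not used here.

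Log2 differences were computed in Python 3.11.15 (numpy 2.4.6, pandas 2.3.3) and plotted with matplotlib 3.10.9, after 62 control probe sets were left out. Symbols came from the platform annotation: 41091 probe sets had 1, 1801 had several and 11721 had none. A single symbol was replaced by the current RefSeq symbol of its gene identifier where there was such a symbol. Expressed genes numbered 12521, and called means at least 2-fold (or 1.5-fold). The script was tested on simulated data. Alternatives were centring on array medians, quantile normalization, floors at the 25th percentile and the median, the median over probe sets, sets without _x_at and _s_at, other expression filters, and a 3-fold limit. Named genes were the 10 members, ARRB1, genes of each list past 2-fold or among its 3 largest in both ARRB1 siRNA pairs, and the 5 nearest in pattern to CDH6. The 10 genes and the lists were chosen with earlier results of these data known. No p-value was computed, and having so few arrays limits the precision.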

Additional observations from a re-analysis of the deposited data

Results flagged for a closer look

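Some genes had log2 differences of opposite sign in the 2 pairs of arrays of 1 contrast, and in none was the difference between the pairs tested. For ARRB1 siRNA, SNAI2 differed by -0.59 in the nicotine treated pair and 0.06 in the starved pair, -0.655 apart. ZEB1 differed by -0.05 and 0.03 (-0.0795 apart) and TWIST1 by 0.05 and -0.12 (0.173 apart). For nicotine, SNAI2 differed by -0.46 with ARRB1 siRNA and 0.19 with control siRNA (-0.655 apart), TWIST1 by 0.05 and -0.12 (0.173 apart) and FN1 by -0.13 and 0.02 (-0.146 apart). The 2 contrasts use the same 4 signals, so a gene's gap is the same in both. Each single difference was smaller than the SD at its signal.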

How the results depend on the processing

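Alternatives altered 164 differences of the 10 genes. Of these, 136 stayed within the SD at their signal of the value reported and 28 moved further, 11 of VIM and 10 of CDH6, and 7 of the 28 changed sign, each where other probe sets were read. By the median over probe sets, for nicotine in ARRB1 siRNA cells CDH1 gave 1.03 against -0.18 and CDH2 0.15 against -0.15, and for ARRB1 siRNA in the starved pair CTNNB1 gave -0.10 against 0.23. CDH1 for ARRB1 siRNA ran between -0.96 and -0.68 in the nicotine treated pair and between -2.15 and -0.71 in the starved pair. VIM for ARRB1 siRNA ran between 0.13 and 0.47 in the nicotine treated pair and between 0.05 and 0.57 in the starved pair. For nicotine, VIM ran between 0.11 and 0.48 with ARRB1 siRNA and between 0.14 and 0.32 with control siRNA. FN1 without _x_at and _s_at sets was left with a set under the expression limit and gave 0.39 for ARRB1 siRNA in the nicotine treated pair and 1.08 for nicotine in ARRB1 siRNA cells. CDH6 for ARRB1 siRNA in the nicotine treated pair was 0.23 by 210601_at. The choice of CDH6 set, subtraction of the median at like signal and the counts at 1.5-fold were added after seeing the data.

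With ARRB1 siRNA, the genes past 2-fold in the starved pair (1) were 0 with a floor at the median or with CDH6 read by 210601_at or 205532_s_at, and 2 at a 1.5-fold limit. In the nicotine treated pair (0), they were 1 with CDH6 by 205532_s_at and 4 at a 1.5-fold limit. Past 1.5-fold, the 2 genes of the starved pair were 1 by the median over probe sets or with CDH6 by either other set, and the 4 of the nicotine treated pair were 2 after centring. For nicotine in ARRB1 siRNA cells, the 1 gene past 2-fold became 0 with a floor at the median or with CDH6 by either other set, and 2 without _x_at and _s_at sets. The 1 gene past 1.5-fold became 0 with that floor and 2 without those sets. The CDH6 difference of 2.71 for nicotine in ARRB1 siRNA cells was -0.91 by 205532_s_at. No count for nicotine in control siRNA cells moved from 0. The share of all genes past 2-fold, 1.05% to 2.28% over the 4 comparisons, was 15.1% to 16.6% with no expression filter, 8.62% to 9.89% with a filter at the 25th percentile of signal and 0.0613% to 0.846% with one at the 75th.

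Dim signals limit what can be read of CDH6, SNAI2 and the weaker probe sets, where the SD at the signal was 0.60 or more. The MAS5 values carry no probe level data here.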
